A study of Homo sapiens with 10 samples.

Results

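The genes described here are 8 members of the basic leucine zipper (bZIP) family of transcription factors: CREB5, ATF2, ATF7, ATF3, BACH1, BACH2, BATF3 and CREB1. They were taken by symbol from a deposited count table of 62750 gene IDs in 12Z cells, an established epithelial line from peritoneal endometriosis lesions. All 8 were found, and all 8 passed the filter on low counts that left 15740 genes for testing. Poly(A)-enriched RNA was sequenced in 10 libraries, 2 for each of 5 groups. The first group received IL1β with 1 µM CDD-3013, the second IL1β with 1 µM CDD-2728, the third IL1β with 10 µM CDD-2728, the fourth IL1β alone and the fifth vehicle. CDD-3013 and CDD-2728 are named in the series as inhibitors of JNK, the c-Jun N-terminal kinase. Inhibitor or DMSO was given for 30 min before IL1β at 10 ng/ml, and cells were collected at 6 h. Every group shared growth in 10% serum and overnight starvation in 2% charcoal-stripped serum, and no group received an inhibitor without IL1β. The 12Z cells are a single line, so donors do not vary.

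bZIP proteins bind DNA as dimers through a basic region and a leucine zipper, and the partner chosen sets which sequence is read. ATF2, ATF7 and CREB5 form a subfamily that pairs with JUN, and JNK and p38 activate ATF2 and ATF7 by phosphorylating their transactivation domains. BACH proteins pair with small MAF proteins and mostly repress, whereas CREB1 answers to cyclic AMP through the cyclic AMP response element (CRE). Interleukin 1β is a cytokine that activates NF-κB, p38 and JNK in epithelial cells. The libraries measured mRNA and not phosphorylation.

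Start-site sequences are shown for CREB5, BACH1 and BACH2 because these are the genes, of 6 with a matched window, that have an AP-1 site (TGACTCA, or TGAGTCA on the other strand) or a full CRE (TGACGTCA) near an annotated start. The windows come from RefSeq on GRCh38.p14 and run from 250 bases before to 50 bases after a start, and the capitals mark the motif. CREB5 is shown at chr7:28685883-28686182 on the plus strand, BACH1 at chr21:29298672-29298971 on the plus strand and BACH2 at chr6:90296794-90297093 on the minus strand.
CREB5: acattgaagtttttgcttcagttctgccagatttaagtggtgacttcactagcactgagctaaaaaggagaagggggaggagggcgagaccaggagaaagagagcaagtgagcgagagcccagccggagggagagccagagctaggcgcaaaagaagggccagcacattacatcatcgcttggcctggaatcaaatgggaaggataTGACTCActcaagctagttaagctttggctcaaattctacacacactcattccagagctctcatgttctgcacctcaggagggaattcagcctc
BACH1: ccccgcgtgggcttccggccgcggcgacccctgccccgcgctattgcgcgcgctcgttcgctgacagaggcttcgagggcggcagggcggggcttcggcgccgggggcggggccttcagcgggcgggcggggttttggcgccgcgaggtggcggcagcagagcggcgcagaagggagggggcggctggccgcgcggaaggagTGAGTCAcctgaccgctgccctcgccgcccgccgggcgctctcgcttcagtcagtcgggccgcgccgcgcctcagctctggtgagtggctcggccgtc
BACH2: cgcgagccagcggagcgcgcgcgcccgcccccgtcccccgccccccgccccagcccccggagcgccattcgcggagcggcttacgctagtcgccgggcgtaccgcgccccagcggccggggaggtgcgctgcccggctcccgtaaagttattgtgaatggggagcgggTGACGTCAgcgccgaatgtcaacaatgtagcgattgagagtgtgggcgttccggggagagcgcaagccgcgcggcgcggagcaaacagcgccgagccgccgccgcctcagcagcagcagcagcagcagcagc

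Windows were matched for 6 of the 8 genes, with 13 windows in all, and none was matched for ATF2 or BATF3. AP-1 sites were searched on both strands. One lay in 1 of the 3 CREB5 windows, with its first base at position -44 from the start, and another in 1 of the 3 BACH1 windows, at -48 on the opposite strand. Of all 34943 RefSeq windows of this length, 4.96% held an AP-1 site. The full CRE of BACH2 lay at -82, and 1.84% of all windows held one. It overlaps 2 copies of the shorter CRE core (TGACG or CGTCA), a motif found in 2 of the 13 windows and in 24.5% of all windows. The kappa-B letters (GGG, any 5 bases, CC), read on both strands with overlaps counted, occurred in 7 of the 13 windows, among them windows of CREB5, ATF7, BACH1 and CREB1, and in 58.6% of all windows. The ATF7 windows at chr12:53625941-53626240 and chr12:53625947-53626246 overlap almost wholly. Both count among the 7, although most of their kappa-B matches are the same sites. These matches describe the letters only, and no binding was measured.

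The genes were chosen by name with their CPM and fold changes in the 5 groups already known, so the levels, fold changes and calls of the 8 genes below are a description and no p-value is given for them. A call means an adjusted p under 0.05 in an edgeR quasi-likelihood fit of all 10 libraries, adjusted over all tested genes. Levels are CPM, read counts scaled to a library size that TMM factors adjust, and log2 fold changes are followed by ± SE. Libraries held 16312600 to 19479416 counts, and the log2 CPM of replicates correlated at 0.9901 to 0.9925. The labels do not say whether the 2 libraries of a group came from separate cultures, so the spread between them may be technical. No 2 libraries agreed within counting error, with a chi-square per degree of freedom of 2.66 to 8.24 between replicates. Per kilobase of the longest annotated transcript, the mean level over the 10 libraries was 18.6 CPM for BACH1, 15.5 CPM for ATF2, 9.22 CPM for ATF3 and 6.27 CPM for CREB1. It was 4.06 CPM for ATF7, 3.02 CPM for BATF3, 0.683 CPM for CREB5 and 0.571 CPM for BACH2. CREB5, one of the scarcest of the 8, spanned the widest range over the groups, with 3.17 log2 units between its lowest and highest group mean. ATF2 spanned the narrowest, 0.26 log2 units.

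**Figure D1:**
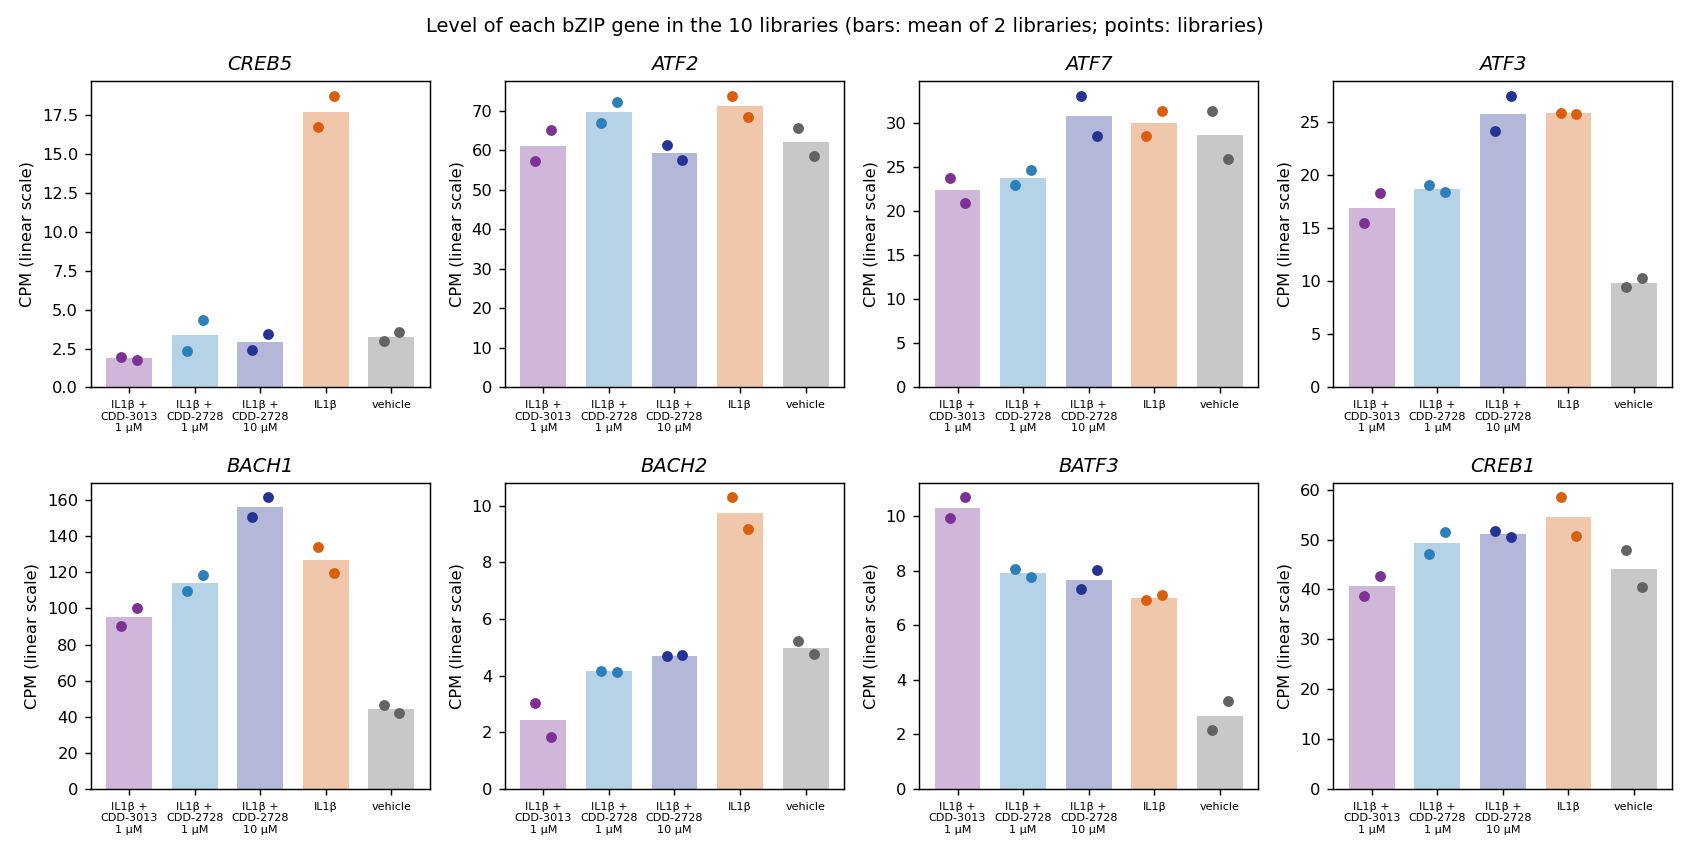
CPM (linear scale, each axis from 0) of the 8 bZIP genes in the 5 groups, with bars for the mean of 2 libraries and points for the libraries. CREB5 and BACH2 are high in the IL1β libraries only, at 16.7 to 18.8 and 9.17 to 10.3 CPM, while ATF3, BACH1 and BATF3 are above vehicle in every library that received IL1β.

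CREB5 mRNA was high with IL1β alone and near or below the vehicle level with either inhibitor. The gene (ENSG00000146592.17) lies at chr7:28299321-28825894 on the plus strand in the GENCODE 29 annotation of GRCh38, and its protein is a relative of ATF2 that binds CRE-like sites. CREB5 stood at 1.96 and 1.77 CPM with 1 µM CDD-3013, 2.37 and 4.32 CPM with 1 µM CDD-2728 and 2.40 and 3.41 CPM with 10 µM CDD-2728, against 16.7 and 18.8 CPM with IL1β alone and 2.95 and 3.58 CPM with vehicle. Both IL1β libraries were above all 8 others, while the CDD-3013 libraries were below the vehicle libraries and the CDD-2728 libraries overlapped them at both doses. In bulk RNA such as this, fewer cells expressing a gene and less RNA per cell cannot be told apart. Against vehicle, IL1β raised CREB5 by a log2 fold change of 2.45 ± 0.21, or 5.45-fold. Against IL1β alone, CREB5 fell by 3.25 ± 0.24 log2 units with 1 µM CDD-3013, by 2.42 ± 0.21 with 1 µM CDD-2728 and by 2.62 ± 0.22 with 10 µM CDD-2728, or 9.49-fold, 5.35-fold and 6.15-fold. These 4 calls were kept under each alternative setting and without any single library.

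ATF2 and ATF7, the relatives of CREB5 that JNK phosphorylates, changed far less at the mRNA level. ATF2 (ENSG00000115966.18, chr2:175072250-175168382, minus strand) averaged 61.2 ± 5.6 CPM with CDD-3013, 69.6 ± 3.7 CPM with 1 µM CDD-2728, 59.4 ± 2.7 CPM with 10 µM CDD-2728, 71.2 ± 3.7 CPM with IL1β and 62.1 ± 5.1 CPM with vehicle (SD, n = 2 each). ATF7 (ENSG00000170653.19, chr12:53507856-53626410, minus strand) averaged 22.4 ± 2.0 CPM with CDD-3013, 23.8 ± 1.2 CPM with 1 µM CDD-2728, 30.9 ± 3.2 CPM with 10 µM CDD-2728, 30.0 ± 2.0 CPM with IL1β and 28.7 ± 3.8 CPM with vehicle. Neither was called between IL1β and vehicle, with a log2 fold change of 0.20 ± 0.085 for ATF2 and 0.06 ± 0.11 for ATF7. Both were called lower with CDD-3013 than with IL1β, ATF2 by -0.22 ± 0.086 and ATF7 by -0.42 ± 0.12. ATF2 was also called lower with 10 µM CDD-2728, at -0.26 ± 0.086, and neither gene was called at 1 µM CDD-2728, where ATF7 stood at -0.33 ± 0.11. The ATF2 calls turned on settings and single libraries. The one with CDD-3013 was lost with DESeq2, with relative log expression factors, without the filter, and when transcript length and GC content were corrected for. It was also lost without either vehicle, IL1β or 10 µM CDD-2728 library or the first CDD-3013 library, with values of -0.12 to -0.27. The call at 10 µM was lost when library totals replaced TMM factors, and without the first IL1β library (-0.21) or either 10 µM library (-0.30 and -0.22). ATF7 lost its call with CDD-3013 without the second IL1β library, at -0.35, and without the second CDD-3013 library, at -0.32. ATF7 shares 2043 of its 7980 exonic bases with the antisense gene ENSG00000257550. That gene had 5 reads in the 10 libraries, and without a stated strand setting reads of the overlap cannot be told apart. ATF7 also shares 1456 exonic bases with ATF7-NPFF on the same strand, where strand cannot separate the reads. ATF7-NPFF had 1 read in the 10 libraries.

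ATF3 was raised by IL1β and was lower with both compounds at 1 µM, and stood level with IL1β at 10 µM CDD-2728. ATF3 (ENSG00000162772.17, chr1:212565334-212620777, plus strand) is an immediate stress-response gene whose protein can repress as a homodimer. It stood at 15.5 and 18.3 CPM with CDD-3013, 19.0 and 18.3 CPM with 1 µM CDD-2728 and 24.1 and 27.4 CPM with 10 µM CDD-2728, against 25.8 and 25.7 CPM with IL1β alone and 9.42 and 10.3 CPM with vehicle. The libraries at 1 µM of either compound were all between the vehicle and the IL1β libraries, and those at 10 µM CDD-2728 lay on either side of the IL1β pair. IL1β raised ATF3 by 1.39 ± 0.12 log2 units over vehicle. Relative to IL1β alone, the log2 fold change was -0.61 ± 0.12 with CDD-3013 and -0.46 ± 0.11 with 1 µM CDD-2728, both called lower, and -0.0025 ± 0.11 with 10 µM CDD-2728. The call at 1 µM CDD-2728 was lost without either IL1β library (-0.45 and -0.46) or the first CDD-2728 library (-0.49).

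BACH1 rose with IL1β and stayed well above vehicle in every inhibitor arm. Its protein represses heme oxygenase and other antioxidant and iron-handling genes, and leaves DNA when it binds heme. BACH1 (ENSG00000156273.16, chr21:29194071-29630751, plus strand) stood at 90.2 and 100.2 CPM with CDD-3013, 109.6 and 118.3 CPM with 1 µM CDD-2728 and 150.6 and 161.5 CPM with 10 µM CDD-2728, against 134.1 and 119.7 CPM with IL1β alone and 46.5 and 42.3 CPM with vehicle. No group of libraries overlapped the IL1β pair: both 1 µM arms were below it and the 10 µM arm above it. The log2 fold change of IL1β over vehicle was 1.51 ± 0.082, or 2.86-fold. Against IL1β alone it was -0.42 ± 0.079 with CDD-3013, called lower, -0.16 ± 0.078 with 1 µM CDD-2728, not called, and 0.30 ± 0.078 with 10 µM CDD-2728, called higher. The call at 10 µM was lost without the second IL1β library (0.22) or the second 10 µM library (0.25), and the call with CDD-3013 was lost with the length and GC correction, at -0.14 ± 0.07. BACH1 shares 45 exonic bases with GRIK1 on the opposite strand, which had 139 reads over the 10 libraries. It shares 302 exonic bases with LINC00189 on the same strand, which had 30 reads.

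BACH2 followed CREB5 rather than BACH1: high with IL1β alone, near vehicle with CDD-2728 and below vehicle with CDD-3013. Its protein is a repressor best known from B and T lymphocytes. BACH2 (ENSG00000112182.16, chr6:89926529-90296908, minus strand) stood at 3.03 and 1.83 CPM with CDD-3013, 4.17 and 4.14 CPM with 1 µM CDD-2728 and 4.70 and 4.72 CPM with 10 µM CDD-2728, against 10.3 and 9.17 CPM with IL1β alone and 5.22 and 4.75 CPM with vehicle. The IL1β pair was above all 8 other libraries, and each inhibitor library was below both vehicle libraries, the 10 µM pair only narrowly. IL1β raised BACH2 by 0.97 ± 0.18 log2 units over vehicle, or 1.95-fold. Against IL1β alone it fell by 1.99 ± 0.21 log2 units with CDD-3013, by 1.23 ± 0.19 with 1 µM CDD-2728 and by 1.05 ± 0.19 with 10 µM CDD-2728. Like the calls of CREB5, these 4 calls were kept under each alternative setting and without any single library. Over the 10 libraries, which share groups and scaling, the log2 CPM of CREB5 and BACH2 correlated at r = 0.881 and that of ATF3 and BACH1 at r = 0.962, while CREB5 and BATF3 had r = -0.0675.

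BATF3 was the only one of the 8 called higher with CDD-3013 than with IL1β alone. Its protein pairs with JUN proteins and is best known for its role in the development of conventional dendritic cells in mice. BATF3 (ENSG00000123685.9, chr1:212686418-212699985, minus strand) stood at 9.92 and 10.7 CPM with CDD-3013, 8.06 and 7.78 CPM with 1 µM CDD-2728 and 7.31 and 8.01 CPM with 10 µM CDD-2728, against 6.94 and 7.10 CPM with IL1β alone and 2.17 and 3.22 CPM with vehicle. Every library that received IL1β was above both vehicle libraries, and the CDD-3013 pair was the highest. The log2 fold change was 1.39 ± 0.20 for IL1β over vehicle, and against IL1β alone it was 0.55 ± 0.17 with CDD-3013, 0.18 ± 0.17 with 1 µM and 0.13 ± 0.17 with 10 µM CDD-2728. The call with CDD-3013 was lost without either IL1β library (0.55 and 0.58) or the second CDD-3013 library (0.52).

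Defining markers of lymphocytes, in which BACH2 is best known, were nearly absent. All 5 B cell and all 5 T cell markers averaged under 1 CPM, with CD3E, CD3G, CD2 and TRAC listed at 0 in every library. Of 7 dendritic and myeloid markers, 5 averaged under 1 CPM, among them CLEC9A and XCR1, which were at 0, while ITGAX averaged 1.04 CPM and CD14 18.89 CPM. The sum of these 7 lay at 21.45 to 24.8 CPM with CDD-3013, the arm in which BATF3 was highest, 18.47 to 26.1 CPM with 1 µM CDD-2728, 19 to 21.4 CPM with 10 µM CDD-2728, 16.83 to 19.25 CPM with IL1β and 16.62 to 17.94 CPM with vehicle. Most of this sum was CD14, while PTPRC averaged 0.190 CPM and CD68 0.0624 CPM. The part of this sum in the BATF3 values was not tested. The summed B cell markers lay at 0.127 to 0.238 CPM with CDD-3013, 0.0618 to 0.169 CPM with 1 µM CDD-2728, 0.107 to 0.299 CPM with 10 µM CDD-2728, 0 to 0.168 CPM with IL1β and 0.0923 to 0.307 CPM with vehicle. Among the markers of the labelled line, the keratin KRT8 averaged 6772 CPM, and the epithelial adhesion gene EPCAM averaged 0.0729 CPM. Of the 8 epithelial markers, KRT18 and KRT19 averaged 2049 and 1124 CPM, and KRT7, CDH1 and MUC1 8.43, 9.73 and 11.35 CPM. CLDN4 averaged 0.583 CPM. The fibrillar collagen COL1A1 averaged 2800 CPM and the mesothelial marker LRRN4 464.5 CPM. None of the 8 endometrial stromal or 5 mesothelial markers averaged under 1 CPM.

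CREB1, the cyclic AMP response factor, moved little. CREB1 (ENSG00000118260.15, chr2:207529737-207603431, plus strand) averaged 40.7 ± 2.9 CPM with CDD-3013, 49.3 ± 3.1 CPM with 1 µM CDD-2728, 51.1 ± 0.94 CPM with 10 µM CDD-2728, 54.6 ± 5.5 CPM with IL1β and 44.2 ± 5.2 CPM with vehicle (SD, n = 2 each). It was called higher with IL1β than with vehicle, at 0.30 ± 0.095 log2 units, and lower with CDD-3013 than with IL1β alone, at -0.43 ± 0.097. The IL1β call was lost when library totals replaced TMM factors, at 0.13 ± 0.097, and also without the second vehicle library (0.20) or the first IL1β library (0.21). The CDD-3013 call was lost without the first IL1β library, at -0.31, and with the length and GC correction the value was -0.016 ± 0.083.

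Of the 8 genes, 6 were called with IL1β over vehicle, all of them higher, where 32.6% of all tested genes were called, 17.6% higher and 15.0% lower. Against IL1β alone, 8 were called with 1 µM CDD-3013, 1 higher and 7 lower, where 36.4% of all tested genes were called, 19.0% higher and 17.3% lower. At 1 µM CDD-2728, 3 of the 8 were called, each lower, where 4.59% of tested genes were called, 2.03% higher and 2.57% lower. At 10 µM CDD-2728, 4 of the 8 were called, 1 higher and 3 lower, where 31.5% were called, 15.6% higher and 15.9% lower. The 8 genes were picked in view of these comparisons and the counts support nothing further. Their median log2 fold change was -0.42 with CDD-3013, -0.25 with 1 µM CDD-2728 and -0.050 with 10 µM CDD-2728, against -0.0072, -0.0020 and 0.0064 over all tested genes. For IL1β over vehicle it was 1.18, against -0.010 over all tested genes. With library totals as the scaling, the median of all tested genes was -0.18 log2 units for IL1β over vehicle, where 25.5% of called genes were then higher in place of 54%. It also changed that share from 52.3% to 39.2% for CDD-3013 and from 49.5% to 61.7% for 10 µM CDD-2728, both against IL1β.

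**Figure D2:**
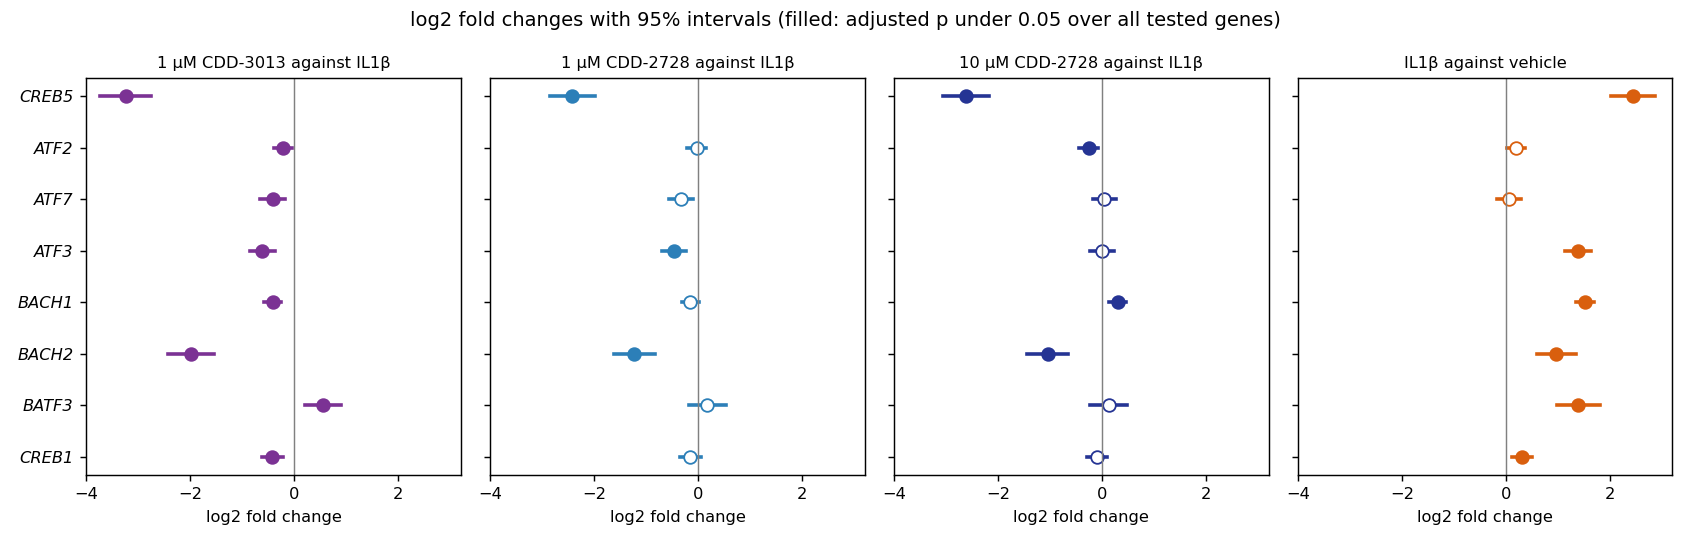
Log2 fold changes (horizontal axis) of the 8 bZIP genes in 4 comparisons, with 95% confidence intervals; filled points are called, with an adjusted p under 0.05 over all tested genes. CREB5 and BACH2 are low in each of the 3 inhibitor arms, from -2.42 to -3.25 and from -1.05 to -1.99, while BATF3 is called higher with CDD-3013, at 0.55, and BACH1 with 10 µM CDD-2728, at 0.30.

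The genes raised at least 2-fold by IL1β and called were CREB5, ATF3, BACH1 and BATF3. The share of that log2 rise left in an inhibitor arm was computed for each as a description. For CREB5 it was -31.9% with CDD-3013, -0.845% with 1 µM CDD-2728 and -7.37% with 10 µM CDD-2728, a negative value meaning a level below vehicle. The single libraries gave -18.3% and 16.6% at 1 µM CDD-2728 and -17.4% and 2.71% at 10 µM. On linear CPM the 3 values were -9.66%, 0.55% and -2.5%, so their size depends on the scale. For ATF3 the share was 55.5% with CDD-3013, 66.5% with 1 µM CDD-2728 and 99.7% with 10 µM CDD-2728. BACH1 kept 72.6%, 89.8% and 120% of its rise in the same arms, and BATF3 kept 140%, 113% and 109%.

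The 2 compounds were compared at the 1 dose they share, 1 µM, which is a single pair. CREB5 differed by -0.83 log2 units (95% interval -1.43 to -0.22, CDD-3013 minus CDD-2728) and was not called, BACH2 by -0.76 (-1.26 to -0.27) and was called lower with CDD-3013. BACH1 was the other gene called lower, at -0.26 ± 0.079. With these 2, 2 of the 8 genes were called, where 17.9% of all tested genes were called, 9.85% higher and 8.01% lower. CREB1 at -0.28 ± 0.097 and BATF3 at 0.38 ± 0.17 were not called. Neither were ATF2 at -0.19 ± 0.086, ATF3 at -0.15 (-0.40 to 0.097) and ATF7 at -0.084 (-0.33 to 0.16), and these intervals leave room for differences of either sign for ATF3 and ATF7. Single libraries and settings decided several of these calls. BACH2 was no longer called without either 1 µM CDD-2728 library (-0.75 and -0.78) or the second CDD-3013 library (-0.45). BACH1 was not called without the second 1 µM CDD-2728 library (-0.21) or the first CDD-3013 library (-0.18). Without the first 1 µM CDD-2728 library, CREB5 was called at -1.21 and CREB1 at -0.34, whereas without the second CREB5 stood at -0.35 and CREB1 at -0.22. CREB1 was called without either vehicle library as well (both -0.28). With all libraries, CREB5 was called with library totals (-0.895) and with the replicate number as a block (-0.814). It was also called without the filter (-0.815) and with the filter at 5 CPM (-0.835). CREB1 was called with relative log expression factors (-0.278), library totals (-0.346), no filter (-0.266) and the filter at 5 CPM (-0.285). ATF2 was called with library totals (-0.255). BACH2 was not called with only the 4 libraries compared (-0.778). With the length and GC correction none of the 8 was called, and the difference was -0.016 ± 0.07 for BACH1, -0.57 ± 0.24 for BACH2 and -0.53 ± 0.29 for CREB5. The sign turned for CREB1, ATF2 and ATF7, at 0.064 ± 0.084, 0.027 ± 0.075 and 0.040 ± 0.11. Under scaling by library totals, 34.5% of the called genes of this comparison were higher with CDD-3013, in place of 55.1%.

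Between 10 and 1 µM CDD-2728, CREB5 and BACH2 were not called, whereas ATF3, BACH1 and ATF7 were higher at 10 µM. The difference, 10 minus 1 µM, was -0.20 log2 units for CREB5 (95% interval -0.75 to 0.35) and 0.18 for BACH2 (-0.25 to 0.62). It was 0.46 ± 0.11 for ATF3, 0.45 ± 0.078 for BACH1 and 0.38 ± 0.11 for ATF7, each called. The other 3 genes, ATF2, BATF3 and CREB1, were not called, at -0.23 ± 0.086, -0.051 ± 0.17 and 0.053 ± 0.095. In this comparison 3 of the 8 genes were called, each higher, where 27.1% of all tested genes were called, 13.3% higher and 13.8% lower. ATF3 lost its call without the second 10 µM library, at 0.36, and ATF7 without the first 10 µM library, at 0.27, or the first 1 µM library, at 0.33. ATF2 was called lower without either vehicle or CDD-3013 library, at -0.24 each time. With all libraries, ATF2 was also called lower with relative log expression factors (-0.233) and without the filter (-0.24). Scaling by library totals raised the share of called genes that were higher from 49.1% to 67% here.

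Set against vehicle, the inhibitor arms separated the genes again. ATF3, BACH1 and BATF3 were called higher in all 3 arms. The log2 fold changes over vehicle were 0.78 ± 0.13, 1.10 ± 0.083 and 1.94 ± 0.19 for these 3 genes with CDD-3013. They were 0.93 ± 0.12, 1.36 ± 0.082 and 1.57 ± 0.19 with 1 µM CDD-2728, and 1.39 ± 0.12, 1.81 ± 0.082 and 1.52 ± 0.19 with 10 µM CDD-2728. CREB5, ATF7 and BACH2 were called lower than vehicle with CDD-3013, at -0.80 ± 0.28, -0.36 ± 0.11 and -1.03 ± 0.22. None of these 3 was called against vehicle at either dose of CDD-2728 in the TMM-scaled fit, but ATF7 at 1 µM, at -0.27 ± 0.11, was called with library totals (-0.46), with the filter at 5 CPM (-0.29) and without the second vehicle library (-0.39). That made 6 of the 8 genes called with CDD-3013, where 49.4% of all tested genes were called, 26.0% higher and 23.4% lower. This split depended on the setting. With library totals all 8 were called with CDD-3013, 3 higher and 5 lower. With the length and GC correction 6 were called, 5 higher and 1 lower. ATF2 and CREB1 were called lower with library totals, at -0.279 and -0.379, but higher with the correction, at 0.185 and 0.251. At 1 µM CDD-2728, 3 were called where 34.8% of tested genes were, 18.3% higher and 16.6% lower. At 10 µM, 3 were called where 34.7% of tested genes were, 18.2% higher and 16.4% lower. CREB5 stood at 0.026 (95% interval -0.50 to 0.55) over vehicle with 1 µM CDD-2728 and at -0.17 ± 0.26 with 10 µM CDD-2728. The CREB5 call was lost without the second vehicle library (-0.65) or either CDD-3013 library (-0.86 and -0.71), and the ATF7 call without the first vehicle library (-0.20) or the second CDD-3013 library (-0.25). With the length and GC correction CREB5 was at -0.48 ± 0.28 and ATF7 at -0.21 ± 0.10 with CDD-3013 over vehicle, neither called, and BACH2 at -0.80 ± 0.22 was still called. Under scaling by library totals, the median of all tested genes over vehicle was -0.29 with CDD-3013, -0.21 with 1 µM and -0.125 with 10 µM CDD-2728, and 24.6%, 23% and 33.8% of called genes were higher, in place of 52.6%, 52.4% and 52.6%. These comparisons share the vehicle and inhibitor libraries with those above.

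Several CDD-3013 values changed when transcript length and GC content were corrected for. When smooth trends over both were removed in each library, 4 of the 8 genes were called against IL1β in place of 8. CREB5 at -2.89 ± 0.23, BACH2 at -1.73 ± 0.21 and ATF3 at -0.70 ± 0.11 were still called lower and BATF3 at 0.50 ± 0.16 higher. ATF2 stood at 0.013 ± 0.075, ATF7 at -0.23 ± 0.10, BACH1 at -0.14 ± 0.07 and CREB1 at -0.016 ± 0.083. The longest transcripts of ATF2, BACH1 and CREB1 have GC contents of 36.9%, 38.6% and 36.0%, the lowest of the 8, while ATF7, the fourth gene that lost its call, has 48.2%, the highest, and CREB5, which kept its call, has 39.9%. Against IL1β, CDD-2728 lost no call under this correction at either dose.

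**Figure D3:**
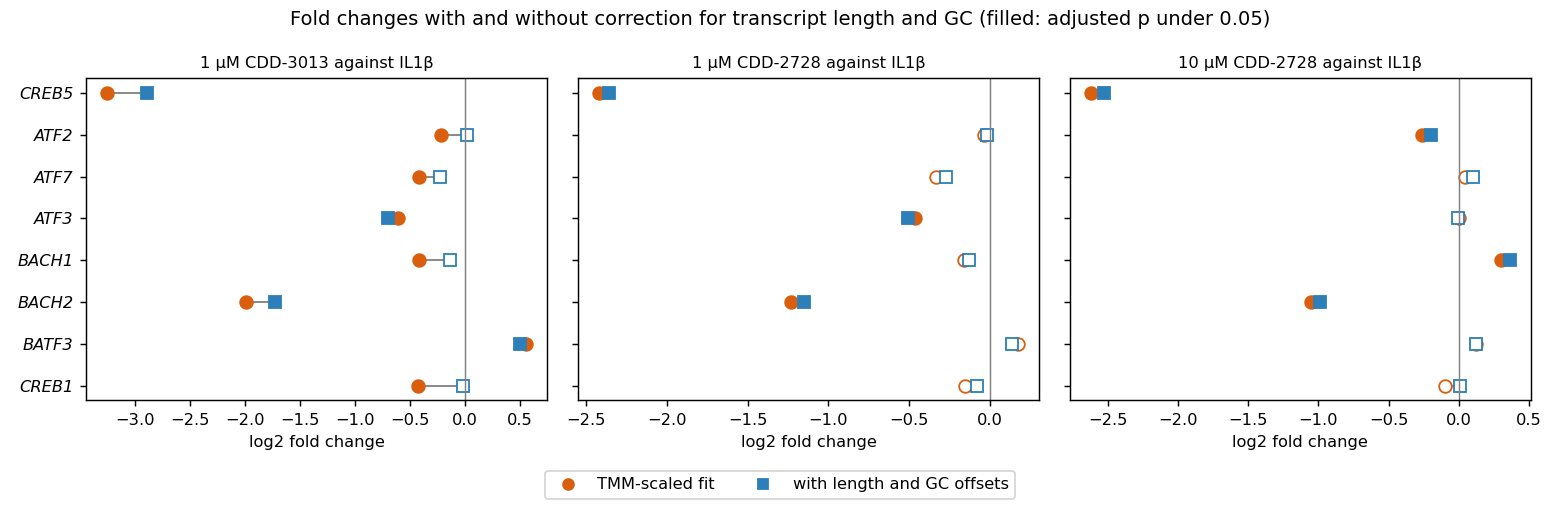
Log2 fold changes against IL1β alone (horizontal axis) of the 8 bZIP genes in the 3 inhibitor arms, from the TMM-scaled fit (circles) and with length and GC offsets (squares); filled symbols are called. With CDD-3013 the squares of ATF2, ATF7, BACH1 and CREB1 are open and closer to 0 than their circles, while CREB5 stays at -2.89 and BACH2 at -1.73.

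Other bZIP genes include the dimer partners of the 8, and 39 of 46 listed had enough counts to be tested. This list and the BACH1-target and CREB lists below were also chosen with earlier results of these data known. Most genes named from them were taken for the smallest adjusted p. Their adjusted p-values are therefore a description, like the calls of the 8 genes. BATF, BATF2, CEBPA, CEBPE and HLF reached at most 0.676 CPM in any library, and CREB3L3 was listed at 0. With IL1β over vehicle, 20 of the 39 were called higher and 5 lower, where 17.6% of all tested genes were called higher and 15.0% lower. Their median was 0.37 log2 units, against -0.010 over all tested genes. With library totals as the scaling, the split was 17 higher and 10 lower. The small MAF gene MAFF, a partner of BACH proteins, was at 78.0 ± 3.7 CPM with IL1β and 15.6 ± 0.80 CPM with vehicle (edgeR adjusted p = 7.02e-16). FOSL2, a JUN partner, rose by 1.71 ± 0.068 log2 units, the C/EBP factor CEBPB by 1.90 ± 0.078, JUNB by 1.77 ± 0.11, JUN by 1.18 ± 0.071 and XBP1, a factor of the unfolded protein response, by 0.98 ± 0.073. The largest edgeR adjusted p of these 5 was 7.38e-10, for JUNB.

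JUN, the namesake JNK substrate and a partner of ATF2, ATF3 and BATF3, was lower than with IL1β alone in each inhibitor arm. It stood at 128.0 ± 1.6 CPM with CDD-3013, 166.9 ± 2.8 CPM with 1 µM CDD-2728 and 81.6 ± 7.1 CPM with 10 µM CDD-2728, against 316.4 ± 11.7 CPM with IL1β and 139.3 ± 9.4 CPM with vehicle. The edgeR adjusted p against IL1β was 2.23e-11, 1.37e-08 and 3.88e-15 in these arms. Of the 39 other bZIP genes, 14 were called higher and 7 lower with CDD-3013, with a median of 0.14, where 19.0% of all tested genes were called higher and 17.3% lower. At 1 µM CDD-2728, 3 were called higher and 4 lower (median 0.085), where 2.03% and 2.57% of all tested genes were. At 10 µM, 17 were called higher and 5 lower (median 0.20), where 15.6% and 15.9% of all tested genes were. JUND fell by 0.59 ± 0.067 log2 units at 1 µM and by 0.63 ± 0.067 at 10 µM CDD-2728. CREB3L1, a membrane-bound factor of the secretory pathway, fell by 0.40 ± 0.076 and by 1.01 ± 0.078 at these doses, and the small MAF gene MAFK fell by 0.43 ± 0.086 at 1 µM. The larger MAF gene MAF rose by 0.82 ± 0.091 with CDD-3013 and by 0.73 ± 0.091 with 1 µM CDD-2728, and CEBPD rose by 1.15 ± 0.11 and 0.59 ± 0.11. NFE2, a partner of small MAF proteins, rose by 1.73 ± 0.24 with CDD-3013, ATF5 by 0.54 ± 0.077 and CEBPB by 0.65 ± 0.075. FOS rose by 2.27 ± 0.22 log2 units at 10 µM CDD-2728, to 10.3 ± 1.2 CPM against 2.11 ± 0.58 CPM with IL1β alone, ATF4 by 0.67 ± 0.07 and CEBPB by 0.92 ± 0.075. Each of these changes had an edgeR adjusted p of at most 0.00475, the value of CEBPD at 1 µM CDD-2728.

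**Figure D4:**
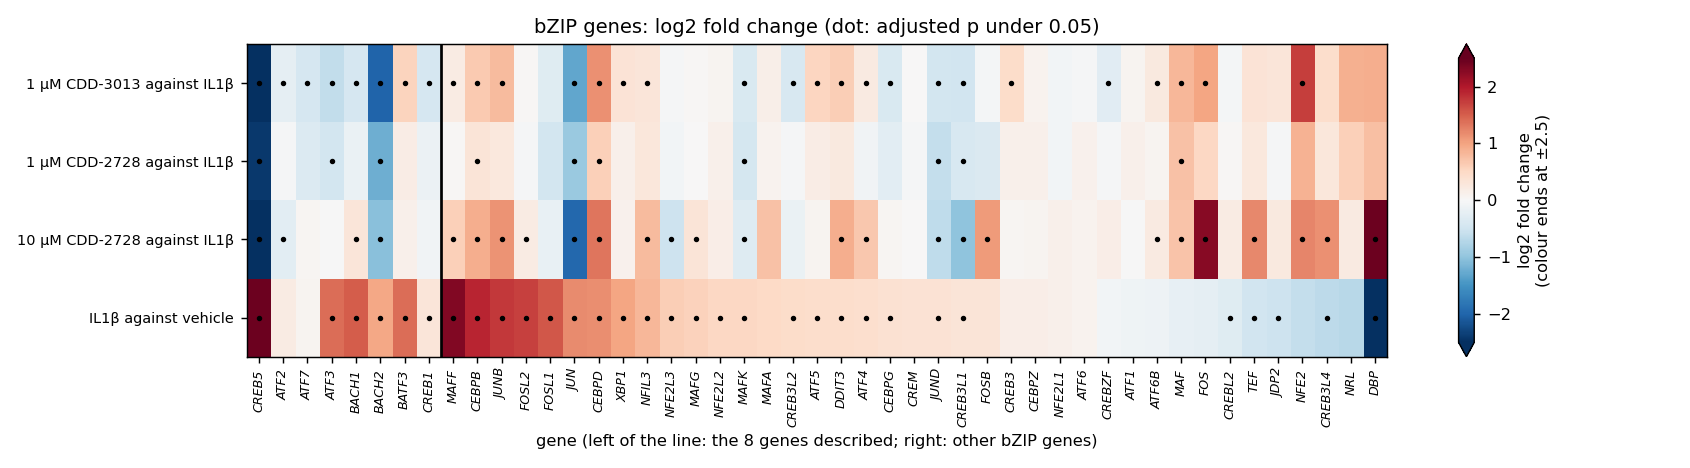
Log2 fold changes (colour, ending at 2.5 in either direction) of the 8 described genes and 39 other bZIP genes (columns) in 4 comparisons (rows), with a dot where the gene was called. CREB5 is the darkest blue of the 8 in the 3 inhibitor rows, and JUN is blue in all 3, with -1.30 with CDD-3013, -0.92 with 1 µM and -1.96 with 10 µM CDD-2728.

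Genes known to be repressed by BACH1 were read from a list of 20, all tested. HMOX1, heme oxygenase and the best-known BACH1 target, was at 26.7 ± 3.7 CPM with CDD-3013, 19.96 ± 0.79 CPM with 1 µM CDD-2728 and 34.96 ± 0.16 CPM with 10 µM CDD-2728, against 12.7 ± 0.58 CPM with IL1β and 13.2 ± 1.0 CPM with vehicle. It was above both IL1β libraries in all 3 arms, with edgeR adjusted p-values of 9.01e-07, 0.00171 and 1.78e-09, and the value for IL1β over vehicle was 0.807. HMOX1 and BACH1 both had their highest group mean with 10 µM CDD-2728. In the other arms they differed in direction against IL1β. With CDD-3013, HMOX1 was at 1.07 ± 0.12 log2 units and BACH1 at -0.42 ± 0.079. With 1 µM CDD-2728, HMOX1 was at 0.65 ± 0.12 and BACH1, not called, at -0.16 ± 0.078. A link between the 2 genes was not tested. Against IL1β, 9 of the 20 were called higher and 2 lower with CDD-3013 (median 0.34), where 19.0% of all tested genes were called higher and 17.3% lower. With 10 µM CDD-2728, 12 were called higher and 1 lower (median 0.42), where the shares over all tested genes were 15.6% and 15.9%. At 1 µM CDD-2728, 4 were called, each higher (median 0.20), where 4.59% of all tested genes were called: HMOX1, FTH1, NQO1 and BLVRB. That count was 7 without the second 1 µM CDD-2728 library, 1 without the first, 2 without the second IL1β library and 0 without the first. In the edgeR fit behind that 0, 4 genes had an unadjusted p under 0.05, and DESeq2 with all libraries called 4. NQO1, a quinone reductase, rose by 0.60 ± 0.081 log2 units with CDD-3013 and by 0.33 ± 0.081 with 1 µM CDD-2728, and BLVRB, a biliverdin reductase, rose by 0.87 ± 0.12 with CDD-3013. SQSTM1 rose by 0.66 ± 0.07 and the thioredoxin reductase TXNRD1 fell by 0.60 ± 0.068 at 10 µM CDD-2728. The largest edgeR adjusted p of these changes was 0.0192, for NQO1 at 1 µM CDD-2728. With IL1β over vehicle, 5 were called higher and 4 lower, where 17.6% and 15.0% of all tested genes were, and with library totals 2 were higher and 9 lower. The ferritin heavy chain FTH1 rose by 1.498 ± 0.089 and MAFG by 0.57 ± 0.07, and the heme transporter SLC48A1 fell by 1.05 ± 0.11 (edgeR adjusted p of at most 6.82e-07). Several of these genes also answer to NRF2, so they are not specific to BACH1.

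Coactivators, kinases and targets of CREB1 were read from a list of 24, of which 22 were tested. PPARGC1A and AREG reached at most 0.357 CPM. The phosphodiesterase gene PDE4D, a cyclic AMP target, was at 44.4 ± 1.1 CPM with CDD-3013, 48.5 ± 2.2 CPM with 1 µM CDD-2728 and 79.7 ± 6.5 CPM with 10 µM CDD-2728, against 33.1 ± 2.7 CPM with IL1β and 15.7 ± 1.7 CPM with vehicle. Its edgeR adjusted p against IL1β was 0.00139, 0.000771 and 4.85e-10 in these arms. At 10 µM CDD-2728, 12 of the 22 were called higher and 2 lower, where 15.6% of all tested genes were called higher and 15.9% lower. The median was 0.60, against 0.0064 over all tested genes. Among them the clock gene PER1 rose by 0.94 ± 0.10 log2 units and the nuclear receptor gene NR4A1 by 1.77 ± 0.21, to 11.4 ± 0.29 CPM against 3.35 ± 0.23 CPM with IL1β alone (edgeR adjusted p = 9.5e-07). CREB1 itself was at -0.096 ± 0.095 and not called in that comparison. With CDD-3013, 4 were called higher and 4 lower (median 0.051), or 36.4% of the 22, the same share as over all tested genes. Among them were the coactivator gene EP300 at -0.42 ± 0.073 and the protein kinase A subunit gene PRKACB at -0.40 ± 0.09 (edgeR adjusted p of 0.000133 and 0.00128). PDE4B, a second phosphodiesterase gene, rose by 1.48 ± 0.21 with CDD-3013. At 1 µM CDD-2728 only PDE4D, at 0.55 ± 0.095, and PDE4B, at 1.14 ± 0.22, were called, both higher, where 4.59% of all tested genes were called. Without the first IL1β library neither was, while 3 genes of the list had an unadjusted p under 0.05 in that edgeR fit and DESeq2 with all libraries called 2. With IL1β over vehicle, 4 were called higher and 5 lower, where 17.6% and 15.0% of all tested genes were, and 3 higher and 8 lower with library totals. PDE4B fell by 1.71 ± 0.21 and PRKACB by 0.52 ± 0.085 there, with an edgeR adjusted p of at most 4.06e-05. MAFG and CREM each stand in a second of these lists.

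Genes with the most similar profile were sought for the 5 genes whose group means spanned at least 1 log2 unit, by Pearson's r of log2 CPM over the same 10 libraries and among 11793 genes. For CREB5 they were ELK3 (r = 0.966), RTN4, MICAL3, DCBLD2 and SOCS2 (r = 0.949). DCBLD2 was also among those of BACH2, with 183.9 ± 0.87 CPM with CDD-3013, 248.5 ± 22.3 CPM with 1 µM CDD-2728 and 248.4 ± 12.6 CPM with 10 µM CDD-2728, against 412.2 ± 22.8 CPM with IL1β and 250.2 ± 14.6 CPM with vehicle. This repeats the CREB5 profile at a much smaller fold. The others for BACH2 were KLF11 (r = 0.962), SIPA1L3, MAP1B and RNF44 (r = 0.941). The most similar for BACH1 included MYO10 (r = 0.993), KSR1, HIVEP2 and ZC3H12C (r = 0.987). ATF3 was most like RND3 (r = 0.983), TRIB1, KSR1, TIFA and HRH1 (r = 0.965). BATF3 was most like TMBIM1 (r = 0.994), LRG1, TRAF4, CXCL11 and HLA-E (r = 0.983). HLA-E was at 406.4 ± 2.4 CPM with CDD-3013, 352.1 ± 41.4 CPM with 1 µM CDD-2728 and 343.3 ± 24.4 CPM with 10 µM CDD-2728, against 321.6 ± 1.6 CPM with IL1β and 197.3 ± 12.0 CPM with vehicle. With Spearman's rho in place of r, 1 of the 5 genes remained for CREB5, 2 for ATF3 and none for BACH1, BACH2 and BATF3.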

How the data were processed

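The 10 libraries were made from poly(A)-enriched RNA. Per the submitters' processing notes, fastp, STAR and featureCounts were used with hg38. The sources used here do not give versions, annotation or strand setting. Whole-number read counts per gene and library were deposited by the authors in 1 table, with 16312600 to 19479416 counts per library. All columns were used. Of the 62750 IDs, 61918 matched a symbol table with their version, 754 without it and 78 not at all. Coordinates came from GENCODE 29 (58323 IDs); 1480 IDs that shared a symbol with a larger gene were set aside for naming.

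From the deposited counts, genes were filtered with filterByExpr (minimum count 10), scaled by TMM (factors 0.9174 to 1.114) and tested with edgeR 4.0.16 under R 4.3.3 (robust quasi-likelihood, 5 residual degrees of freedom, common biological coefficient of variation 0.06), with no covariate. Benjamini-Hochberg adjustment ran over the 15740 tested genes, with a threshold of 0.05. The fitting script was tested on simulated counts for IL1β over vehicle. It recovered 74% of 100 genes changed by 1 log2 unit and 95% of 100 changed by 2. There were 5 false calls among 15218 genes. Intervals are 95% intervals of the fit. The precision of CREB5 and BACH2 is set by low counts.

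The 8 genes and the lists of other bZIP, BACH1-target and CREB genes were chosen with earlier results of these data known. Named are the 8, the called genes of the lists with the smallest adjusted p (6 other bZIP genes and 3 of each further list in each of 4 comparisons), JUN, and the 5 most similar profiles, among genes of at least 2 CPM in their highest group with clone names, pseudogenes and antisense genes left out. HLA-E, DCBLD2 and HMOX1 are given in every group, a choice made after their values were seen, as was naming BLVRB at 1 µM CDD-2728. For likeness, log2 CPM had a prior count of 2. Alternatives were relative log expression factors, library totals, no filter, a filter at 5 CPM in 2 libraries, DESeq2 1.42.0, only the 4 libraries compared, the replicate number as a block, length and GC offsets (loess span 0.3, for 97.3% of tested genes), and leaving out each library. Some genes that the rule or the lists hold are not reported here. A comparison of protein sequences was not analysed here.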

Additional observations from a re-analysis of the deposited data

How the results depend on the processing

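The calls of CREB5, ATF3, BACH1, BACH2 and BATF3 for IL1β over vehicle, and those of CREB5 and BACH2 in each inhibitor arm against IL1β, held in direction and threshold under all alternatives and without any single library. Under the other settings there were 573 values of the 8 genes over 9 comparisons. Of these, 539 stayed on their side of the threshold, 14 lost a call and 17 gained one. The other 3 both changed sign and were called either with TMM factors or under the alternative, but not under both. These 3 came with the length and GC offsets: ATF2 at 0.0132 with CDD-3013 against IL1β, and ATF2 at 0.185 and CREB1 at 0.251 with CDD-3013 against vehicle. Values that changed sign without a call in either fit are among the 539. Those of ATF2, ATF7 and CREB1 with CDD-3013 against CDD-2728 under the offsets are examples. For CDD-3013 against IL1β the offsets left 4 of 8 genes called. For CDD-3013 against CDD-2728 at 1 µM, where 2 of 8 were called, library totals gave 5, no filter 4, the filter at 5 CPM 4, only the 4 libraries compared 1, DESeq2 1 (it gave no adjusted p for CREB5, BACH2 and BATF3) and the offsets 0; in that edgeR fit with offsets 2 had an unadjusted p under 0.05. The cause was not tested. On linear CPM the share of the rise left was -9.66% (CREB5, CDD-3013), 0.55% (CREB5, 1 µM CDD-2728), 55.4% (ATF3, 1 µM), 61.5%, 84.3% and 135% (BACH1 with CDD-3013, 1 µM and 10 µM CDD-2728), and 176% and 121% (BATF3 with CDD-3013 and 1 µM CDD-2728).

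Leaving out 1 library at a time, the number of the 8 genes called was 5 to 8 for CDD-3013 against IL1β (5 without either IL1β library), 2 to 3 for 1 µM and 2 to 4 for 10 µM CDD-2728 (2 without the second 10 µM library), and 5 to 7 for IL1β over vehicle. It was 2 to 4 between the doses, 4 to 6, 3 to 4 and 3 to 4 for CDD-3013, 1 µM and 10 µM CDD-2728 against vehicle, and 0 to 3 for CDD-3013 against CDD-2728. That 0 came without the second 1 µM CDD-2728 library, where 2 genes had an unadjusted p under 0.05 in edgeR, and 1 was called without either CDD-3013 library. At 1 µM CDD-2728 the count was 4 to 8 for other bZIP genes (4 without the first IL1β library), 0 to 7 for BACH1 targets and 0 to 2 for the CREB list. For CDD-3013 the CREB list gave 5 to 8, with 5 without the first IL1β or the second CDD-3013 library. Where a group was left with 1 library, it was assumed to vary like the others.

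Replicate numbers gave no sign of pairing in expression: over the 10 pairs of groups, deviations of same-numbered libraries correlated at -0.114 to 0.0548. In total counts, the first library of each group was larger than the second. With the replicate number as a block, 70 of 72 results of the 8 genes kept their side of the threshold. The exceptions were ATF2 with CDD-3013 against IL1β (-0.219, no longer called) and CREB5 with CDD-3013 against CDD-2728 at 1 µM (-0.814, then called). With 2 libraries a group and 28 to 299 counts of CREB5 in a library, differences as large as those between doses of CDD-2728 were not detectable for CREB5 and BACH2.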
